A study of Mus musculus with 12 samples.

Results

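The genes Cish, Socs1, Socs2 and Socs3 encode 4 members of the suppressor of cytokine signalling family, feedback inhibitors of the JAK-STAT pathway, and STAT5 binding around them was described here in mouse embryonic fibroblasts given growth hormone. Regions bound by STAT5 were taken from deposited lists when the centre of the region lay in a window of 100 or 110 kb around each gene on mouse genome build mm9. The windows ran from 107150001 to 107250000 on chromosome 9 (Cish), from 10730001 to 10840000 on chromosome 16 (Socs1), from 94820001 to 94930000 on chromosome 10 (Socs2) and from 117780001 to 117880000 on chromosome 11 (Socs3). They held 134 of the 156642 regions in the 3 lists analysed. Of these, 63 were from replicate 1 of cells overexpressing STAT5A, 61 from replicate 2 of those cells and 10 from wild-type cells. The annotation used, RefSeq on GRCm38, places each gene on the chromosome of its window, but gene positions on mm9 were not analysed here. Distances below are therefore measured from a STAT5 summit and not from a transcription start.

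Growth hormone binds its receptor at the cell surface and activates the kinase JAK2, which phosphorylates STAT5. STAT5 dimers then enter the nucleus and bind DNA at the gamma-activated sequence TTCNNNGAA. The proteins of this family are made in response to such signals and shut them down again. CIS, the product of Cish, and SOCS2 bind phosphorylated receptors through their SH2 domains, and mice without SOCS2 grow larger than normal. SOCS1 and SOCS3 also carry a kinase inhibitory region that blocks the JAK enzymes directly, SOCS1 chiefly in interferon signalling and SOCS3 chiefly downstream of receptors of the interleukin-6 type.

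The overexpressing cells carried the genotype Stat5-/- and STAT5A (STAT5A-Stat5-/- in the labels), and the wild-type cells had intact Stat5. How STAT5A was introduced is not given in the sources used here. Overexpression and the loss of the endogenous genes come together in these cells, so their effects cannot be told apart. All cells were fibroblasts on a C57BL/6 background, grown from fetuses of 12.5 to 13.5 days and used at passage 9 to 10. Serum was withheld for 5 h before growth hormone was added at 1 µg/ml for 45 min, after which chromatin was cross-linked and precipitated with an antibody to STAT5. The lists cover 2 libraries of stimulated overexpressing cells and 1 of stimulated wild-type cells. The labels name the replicate 2 list beside an unstimulated as well as a stimulated library, and it was taken as stimulated from its own track name. The other 9 of the 12 libraries, which include unstimulated overexpressing cells, Stat5-/- cells and IgG controls, were not analysed here, so the signal without STAT5 or without growth hormone has no value beside those below. The lists hold positions only, with no height or score, and their sequencing depth is unknown. Gene expression was not measured, so the cell type could not be checked against its markers. With 1 wild-type library no p-value is given for any difference between genotypes.

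The promoters of 3 of the 4 genes were at hand as RefSeq sequences on GRCm38, from 250 bases before to 50 bases after the transcription start; Socs2 had no entry. They are shown because TTCNNNGAA is the sequence that STAT5 itself recognises. Each is written 5′ to 3′ on the strand of its gene, with matches to TTCNNNGAA in capitals. The motif reads the same on both strands. The Cish window is chr9:107296409-107296708 on the plus strand, that of Socs1 chr16:10785487-10785786 on the minus strand and that of Socs3 chr11:117969317-117969616 on the minus strand.
Cish: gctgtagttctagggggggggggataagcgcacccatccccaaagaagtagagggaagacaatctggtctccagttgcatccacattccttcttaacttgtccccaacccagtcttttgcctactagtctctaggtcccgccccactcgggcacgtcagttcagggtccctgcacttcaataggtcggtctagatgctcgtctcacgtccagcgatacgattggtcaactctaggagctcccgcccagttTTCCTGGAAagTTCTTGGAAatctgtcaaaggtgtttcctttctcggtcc
Socs1: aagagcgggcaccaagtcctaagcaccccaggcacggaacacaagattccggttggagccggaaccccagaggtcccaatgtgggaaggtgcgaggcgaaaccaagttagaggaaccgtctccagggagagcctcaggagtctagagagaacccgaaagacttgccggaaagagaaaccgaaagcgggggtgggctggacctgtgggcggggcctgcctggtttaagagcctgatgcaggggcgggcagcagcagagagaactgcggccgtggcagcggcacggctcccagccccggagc
Socs3: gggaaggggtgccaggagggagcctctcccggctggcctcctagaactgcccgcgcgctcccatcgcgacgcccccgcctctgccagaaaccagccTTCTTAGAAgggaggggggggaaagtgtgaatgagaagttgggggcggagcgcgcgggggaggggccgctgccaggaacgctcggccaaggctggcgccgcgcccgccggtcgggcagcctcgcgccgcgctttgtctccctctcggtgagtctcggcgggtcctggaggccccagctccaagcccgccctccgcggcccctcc

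The Cish promoter held 2 matches, TTCCTGGAA and TTCTTGGAA, which began at bases 1 and 12 of the annotated transcript and were 2 bases apart. The Socs3 promoter held 1 match, TTCTTAGAA, whose first base lay at position -154 from the start. The Socs1 window contained no match. Of all 32851 promoter windows in the same table, 8.30% held at least 1 match and 0.457% held more than 1. Among the other family genes Socs4, Socs5, Socs6 and Socs7, Socs4 alone had a promoter entry, and it held no match. A match of letters is not evidence of binding. Which of the STAT5 regions below lie over these promoters was not analysed, because the regions are on mm9 and the promoters on GRCm38.

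STAT5 regions were present at all 4 loci in all 3 lists. Summed over the loci, overexpressing cells had 63 and 61 regions in replicates 1 and 2, a mean of 62 ± 1.41 (SD, n = 2), against 10 in wild-type cells. This SD describes the counts as deposited and does not measure how well the replicates agree. With regions of a list joined where at most 11 bp apart, as described below, the counts were 47 and 61. The deposited counts are 6.30 and 6.10 times the wild-type number, where the whole lists differed 5.39-fold and 5.41-fold. This excess rests on 10 wild-type regions and was not seen at every locus. Socs3 supplied 32 and 26 of the overexpression regions and 3 of the wild-type regions. The ratios were 3 and 2.5 at Socs2, 5.5 and 6.5 at Cish, and 8 and 12 at Socs1, with its single wild-type region. After joining, replicate 1 had 47 regions against 10 in wild type, where the whole joined lists had 58744 against 13037. The sequence covered at the loci was 28.6 and 35.9 kb in the overexpressing cells and 3.88 kb in wild-type cells, which is 7.37 and 9.25 times as much, against 5.77 and 5.93 times over the whole lists. The depth of the libraries, which also sets how many regions are called, was not available, and its part in these ratios was not tested.

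The numbers behind these ratios differed between the loci. The Socs3 window had 32 and 26 regions in overexpressing cells, against 3 in wild-type cells. The Cish window had 11 and 13 regions in overexpressing cells, against 2 in wild-type cells. The Socs1 window had 8 and 12 regions in overexpressing cells, against 1 in wild-type cells. At Socs2 the overexpressing cells had 12 and 10 regions, against 4 in wild-type cells, and the order of the loci was not the same in both genotypes. Socs3 came first among the overexpression lists and Socs2 in the wild-type list. The wild-type order rests on 4 against 3 regions of 1 library, in windows of 110 and 100 kb. Within 10 kb of the summit used below as origin for distances, Socs3 had 3 wild-type regions and Socs2 had 2. In that stretch Socs3 had 11 and 6 regions in overexpression replicates 1 and 2, and Socs1 had 3 and 7. Coverage of the whole windows put the loci in an order similar to that of the whole-window counts. At Socs3 the regions covered 15.0 and 18.0 kb in overexpressing cells and 1.23 kb in wild-type cells, and at Socs2 they covered 4.42 and 5.03 kb in overexpressing cells and 1.55 kb in wild-type cells. Covered sequence at Socs3 was therefore 12.2 and 14.7 times that of wild type, whereas at Socs2 it was 2.85 and 3.24 times. The ratios for Cish, 6.54 and 8.14, lay between these. At Socs1, ratios of 14.5 and 23.9 rest on a single wild-type region of 248 bp.

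**Figure D1:**
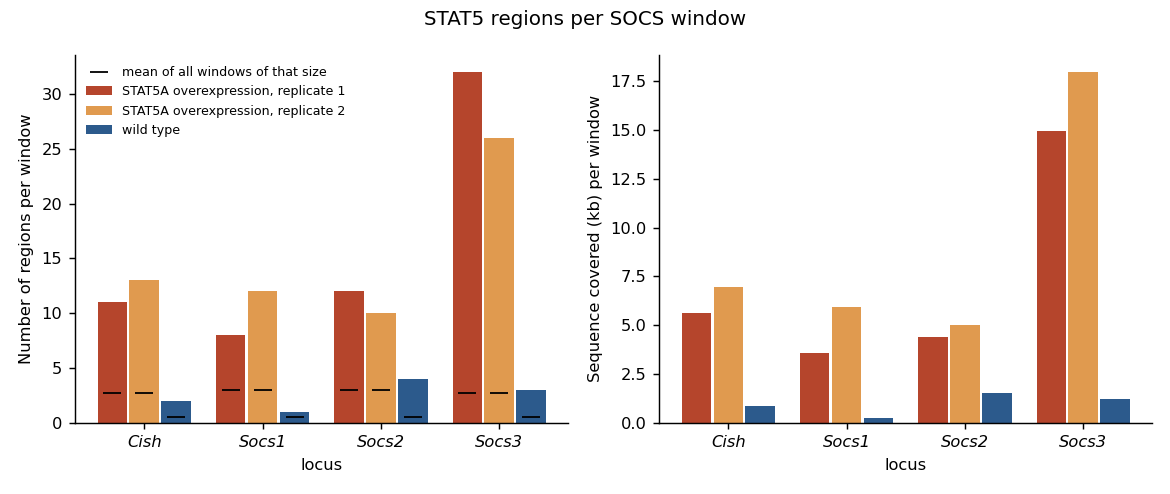
Number of STAT5 regions (left) and sequence they cover in kb (right) in the window of each gene, for overexpression replicates 1 and 2 and for wild type, with 1 library per bar. Short black lines mark the mean number over all windows of the same size in that list; the Socs3 bars of the overexpressing cells (32 and 26 regions) stand above those of the other loci (8 to 13), and the wild-type bars range from 1 to 4.

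The counts were set beside those of all whole windows of the same size, placed side by side along the autosomes and chromosome X. In the 26370 windows of 100 kb, at least 1 region was found in 59.8% and 62% of windows for overexpression replicates 1 and 2 and in 33.8% for wild type. In the 23971 windows of 110 kb, the shares were 61.4%, 63.5% and 36.3%. The presence of a region is therefore common, and the numbers per window say more. As many regions as at Cish were found in 4.46% and 1.81% of windows in overexpression replicates 1 and 2, and in 11% of wild-type windows. For Socs1 the shares were 12.6% and 3.45% for the overexpressing cells and 36.3% for wild type, where the single region of this locus is a common count. For Socs2 they were 4.28% and 6.62% for the overexpressing cells and 1.53% for wild type. These windows include tracts without genes, while the loci were chosen as genes, so the shares are a description.

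Chromosome 10, which carries Socs2, is rich in regions: its windows of 110 kb held a median of 3 regions in each overexpression replicate and 1 in wild type, where all such windows had medians of 1, 2 and 0. Among the 1181 windows of chromosome 10 alone, 9.48% and 11.8% had as many regions as Socs2 in overexpression replicates 1 and 2, and 8.81% had its 4 regions or more in wild type, in place of 1.53% over the genome. For Cish, 2.58% and 1.21% of chromosome 9 windows reached its numbers in overexpression replicates 1 and 2, and 10.6% did so for wild type.

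Socs3 stood near the top of the genome in both overexpression lists. None of the 26370 whole windows of replicate 1 (0%) and 1 window of replicate 2 (0.00379%) had as many regions, against 943 windows (3.58%) in wild type. Because whole windows can cut through a dense stretch, windows starting every 10 kb were also counted, a setting chosen after the data were seen. Of 263604 such windows, 20 (0.00759%) held at least 32 regions in replicate 1, and the Socs3 window itself was the 1 among them that touched this locus. In replicate 2, 5 windows (0.0019%) held at least 26, and 2 of these touched the Socs3 locus. The highest counts in any window were 40 in replicate 1 and 27 in replicate 2. Neighbouring regions at Socs3 were separated by a median of 0.652 and 1.25 kb for the overexpressing cells and 3.09 kb for wild type, where the medians of the whole lists were 7.97, 10.97 and 92.8 kb. The wild-type value is the median of 2 gaps, and gaps inside a window cannot exceed its size, unlike those of the whole lists. Short gaps were not particular to Socs3. At Cish the medians were 0.671 and 2.86 kb in overexpression replicates 1 and 2, whereas Socs1 had 12.6 kb in replicate 1.

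The number in the replicate 1 list also depends on whether regions that nearly touch are counted apart. Many neighbouring regions of that list were 11 bp or less apart, as positions in the file give them: 17.9% of all gaps in replicate 1 and 0.11% in replicate 2, against 1.82% of wild-type gaps. At the 4 loci, 16 of 59 gaps were of this kind in replicate 1, and none of the 57 gaps of replicate 2 or the 6 of wild type were. Joining such regions, a setting added after the data were seen, left 47 regions in replicate 1, with 8 at Cish, 7 at Socs1, 8 at Socs2 and 24 at Socs3, and changed none of the numbers in replicate 2 and wild type. Over the whole lists, joining left 58744 regions in replicate 1 and 13037 in wild type. In the joined lists 18 of the windows starting every 10 kb reached the 24 regions of Socs3 in replicate 1 (0.00683%). For Cish and Socs2 in replicate 1, 6.16% and 7.66% of those windows then reached the locus count, in place of 4.50% and 4.29% before joining. Without the gaps of at most 11 bp, the median gap at Socs3 in replicate 1 was 2.45 kb in place of 0.652 kb, longer than the 1.25 kb of replicate 2, and the median of the joined replicate 1 list was 13.4 kb.

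Overlapping regions were next merged across lists into distinct sites, with an overlap of at least 1 bp. The 4 loci held 75 sites. Of these, 34 were present in both overexpression replicates, and 6 of the 34 were also present in wild type. The remaining sites were 13 in replicate 1 alone, 25 in replicate 2 alone, 1 in replicate 1 and wild type, and 2 in wild type alone. Sites were not merged over the whole lists, so site counts here and at each locus have no whole-list share beside them. They are a description, and shares of regions with their whole-list values are given further below. Each locus had at least 1 site in all 3 lists, with 1 at Cish, 1 at Socs1, 2 at Socs2 and 2 at Socs3.

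To place the regions, distances were counted from the summit of 1 wild-type region per locus. This was the region found in both overexpression replicates that lay nearest to the middle of the window, and it is called the central site below. Negative distances point to lower coordinates. The map of the loci shows the regions on this scale.

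**Figure D2:**
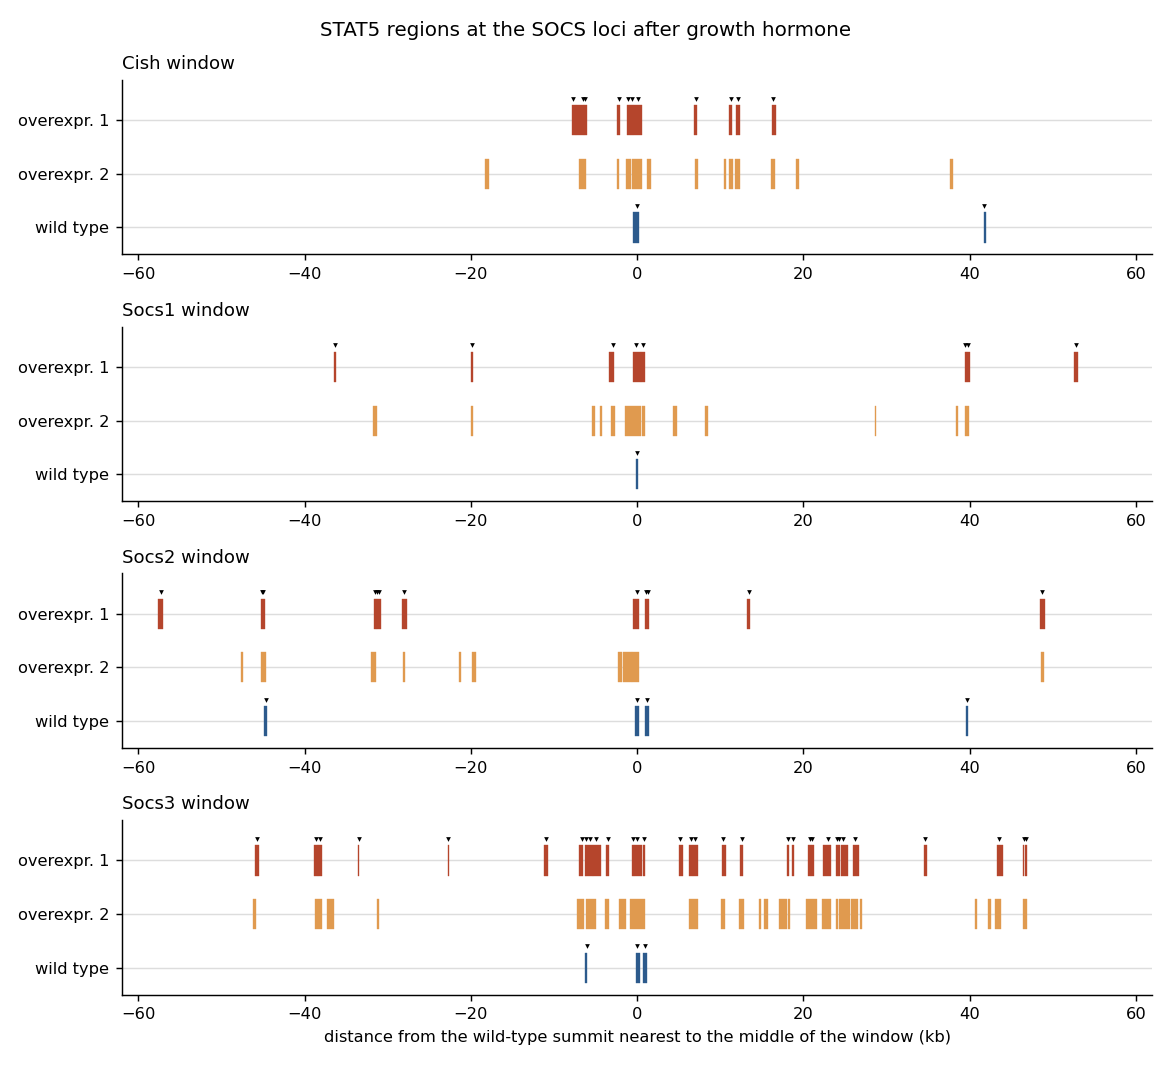
STAT5 regions in the 4 windows, drawn to scale as bars with 1 row per library, against the distance in kb from the summit of the central wild-type site. Black triangles are summits where the list gives them (overexpression replicate 1 and wild type). Regions of all 3 lists coincide at 0 kb in each window by construction, because the central site was chosen among those found in all lists. The overexpressing cells have 32 and 26 regions along the Socs3 window where wild type has 3.

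At Cish, the central site was the widest region of the locus in every list. It measured 1068 bp in replicate 1 and 1245 bp in replicate 2 of the overexpressing cells, against 669 bp in wild-type cells, where it ran from 107198563 to 107199231 on chromosome 9. In their whole lists, 0.37% and 0.971% of overexpression regions and 1.499% of wild-type regions were at least as wide. The wild-type region lay wholly inside the regions of both replicates, and its summit was 60 bp from that of replicate 1. In the overexpressing cells the site was flanked by 7 further sites found in both replicates and not in wild type. They were centred at -6.7, -2.3, -1.0, 7.0, 11.3, 12.1 and 16.4 kb. The first of these was nearly as broad as the central site, with regions of 999 and 278 bp in replicate 1 and 900 bp in replicate 2. Another 6 sites, between -18.1 and 37.8 kb, were found in 1 replicate alone. The other wild-type region, at 41.9 kb, was 188 bp wide, narrower than nearly all wild-type regions (99.8% were at least as wide). It had no overexpression counterpart, and the nearest overexpression regions lay 25.1 kb away in replicate 1 and 3.75 kb away in replicate 2. RefSeq lists Mapkapk3, which encodes a stress-activated kinase, and Hemk1 as the coding genes next to Cish.

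At Socs2, which encodes the family member most tied to growth hormone action, the wild-type regions were 4. The central site, from 94879373 to 94879760 on chromosome 10, was 739 and 814 bp wide in overexpressing cells and 388 bp in wild-type cells, and the wild-type and replicate 1 summits were 50 bp apart. Another wild-type region, of 458 bp, lay 1.16 kb further on. In replicate 1 it matched regions of 349 and 158 bp, 1 of them with a summit 35 bp away, whereas replicate 2 had no region within 0.733 kb. Replicate 2 instead extended to the other side of the central site, with regions of 1088 bp at -1.20 kb and 435 bp at -2.05 kb that replicate 1 did not list. The replicates thus both had a group of regions around the central site but differed in its members. A wild-type region of 418 bp, with its summit at -44.67 kb, was overlapped by 209 bp and 597 bp regions in replicates 1 and 2, and its summit was 285 bp from that of replicate 1, the farthest among the loci. The last, of 288 bp and at 39.68 kb, was found in wild type alone, with the nearest overexpression regions 8.68 and 8.77 kb away. Sites found in both replicates and not in wild type lay at -31.7, -28.0 and 48.8 kb, and 9 sites between -57.3 and 13.4 kb were in 1 replicate alone. Of the regions at Socs2, 6 of 12 in replicate 1 and 5 of 10 in replicate 2 were overlapped in the other list. Cradd and Mrpl42 are the coding neighbours of Socs2 in RefSeq.

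At Socs1, wild-type cells had a single region, 248 bp wide, from 10786253 to 10786500 on chromosome 16. It was narrow for its list (87.5% of wild-type regions were at least as wide). The overexpressing cells had their widest regions of the locus at the same place, 899 bp in replicate 1 and 1872 bp in replicate 2. The 1872 bp region ranked 55 by width among the 71803 regions of replicate 2. Both overexpression regions contained the wild-type region in full, and the summits of replicate 1 and wild type were 125 bp apart. The 4 other sites found in both replicates lay at -19.9, -3.0, 0.7 and 39.7 kb. A further 9 sites, between -36.3 and 52.8 kb, were seen in 1 replicate alone, 2 in replicate 1 and 7 in replicate 2. Socs1 had the largest relative difference in number between the replicates, with 8 and 12 regions. Its coding neighbours in RefSeq are Clec16a and Tnp2.

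At Socs3, regions of the overexpressing cells were spread over 92.8 and 93.1 kb of the 100 kb window. The 3 wild-type regions were confined to 7.40 kb of it. They measured 219, 508 and 498 bp, with summits at -6.08, 0 and 0.99 kb, and the central one ran from 117830393 to 117830900 on chromosome 11. It lay inside a 929 bp region of replicate 1, with summits 30 bp apart, and inside a 1718 bp region of replicate 2 that ranked 97 by width in its list. The same replicate 2 region also reached the wild-type region at 0.99 kb and covered 48.2% of it, though not its summit. At -6.08 kb, the wild-type region of 219 bp was overlapped by regions of 189 and 739 bp in replicate 1 and of 1280 bp in replicate 2. The broadest replicate 1 region of the locus, 988 bp, belonged to the same site. The 14 sites found in both replicates and not in wild type lay at -45.8, -38.4, -6.8, -3.6, 6.8, 10.4, 12.5, 17.8, 21.0, 22.8, 24.8, 26.2, 43.5 and 46.6 kb. Another 14 of the 30 sites at this locus were in 1 replicate alone, 6 in replicate 1 and 8 in replicate 2. A dense group of the sites found in both ran from 17.8 to 26.2 kb. There the overexpressing cells had regions of up to 978 bp in replicate 1 and 1294 bp in replicate 2, with no region in wild type. The coding genes next to Socs3 in RefSeq are Tha1 and Pgs1, and whether this group lies in a neighbouring gene was not analysed here.

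Replicates of the overexpressing cells shared a larger part of their regions over the 4 loci together than over the whole lists, a difference that has no test here and that was not seen at every locus. Of the replicate 1 regions, 48 of 63 overlapped a region of replicate 2 (76.2%, 95% exact binomial interval 63.8 to 86.0%), where the share in the whole list was 51.9%. Of the replicate 2 regions, 36 of 61 overlapped replicate 1 (59.0%, interval 45.7 to 71.4%), where the whole-list share was 43.1%. Regions of 1 locus are neighbours in the same library, so the intervals cover counting error only. Overlaps of 1 bp are also easier to meet where regions are dense or wide. At Socs3, for example, replicate 2 regions covered 18.0 kb of the 100 kb window. The part of density and width in these shares was not tested. By locus, the replicate 1 regions found in replicate 2 were 10 of 11 at Cish, 26 of 32 at Socs3, 6 of 8 at Socs1 and 6 of 12 at Socs2. The replicate 2 regions found in replicate 1 were 8 of 13 at Cish, 18 of 26 at Socs3, 5 of 12 at Socs1 and 5 of 10 at Socs2. Socs2 in replicate 1 (50%) and Socs1 in replicate 2 (41.7%) were thus slightly below the shares of their whole lists. Summits of replicate 1 lay inside the overlapping replicate 2 region in 46 of 48 cases, and in 90.9% of cases over the whole list. When at least 50% of both regions had to overlap, the shares at the loci were 44.4% for replicate 1 and 45.9% for replicate 2, where the whole lists had 32.7% and 32.6%. With centres within 200 bp they were 52.4% and 50.8% at the loci, where the whole lists had 39.1% and 37.7%.

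Wild-type regions at the loci were mostly present in the overexpressing cells. Of the 10, 8 overlapped a region in at least 1 overexpression replicate (80.0%, interval 44.4 to 97.5%), where the whole-list share was 38.9%. In both replicates 7 did (70.0%, interval 34.8 to 93.3%), where the whole-list share was 23.3%. Taken singly, replicate 1 overlapped 8 of the 10 and replicate 2 overlapped 7, where the whole-list shares were 32.3% and 29.9%. With only 10 regions these shares are imprecise, and the part of the density of overexpression regions at the loci in them was not tested. The share in both replicates was 1 of 10 (10.0%) under a reciprocal overlap of at least 50% and 3 of 10 (30.0%) for centres within 200 bp. The shares over the whole wild-type list were 8.98% and 15.3% under these rules. In at least 1 replicate, 7 of 10 (70.0%) and 8 of 10 (80.0%) were matched under the same rules. There the whole-list shares were 25.4% and 33.5%. The 2 wild-type regions without a counterpart had the highest coordinates among the wild-type regions of Cish and of Socs2. Seen from the overexpressing cells, 10 of 63 replicate 1 regions and 6 of 61 replicate 2 regions overlapped a wild-type region (15.9% and 9.84%), where the whole-list shares were 6.55% and 5.25%.

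**Figure D3:**
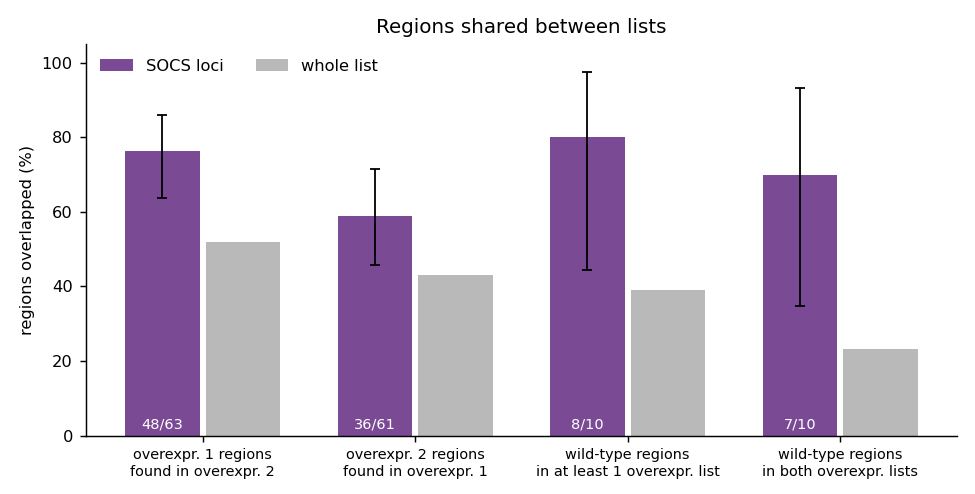
Percentage of regions that overlap a region of the other list or lists by at least 1 bp, for regions at the SOCS loci (purple, with the numbers of regions in the bars) and for the whole list (grey). Error bars are 95% exact binomial intervals, which cover counting error only; the shares at the loci are 76.2, 59.0, 80.0 and 70.0%, against 51.9, 43.1, 38.9 and 23.3% in the whole lists.

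Where wild-type and replicate 1 regions overlapped, their summits were about as close at the loci as over the whole lists. Only overlapping regions were compared and the nearest replicate 1 summit was taken, which by itself keeps the distances short. The distance was 30 to 285 bp over the 8 overlapped wild-type regions, with a median of 62.5 bp, and 5 of the 8 were within 100 bp. Over the whole lists the median was 75 bp, and 63.1% of 4294 overlapped wild-type regions were within 100 bp. With region centres in place of summits the median at the loci was 92.5 bp. The list of replicate 2 gives no summits. Of the 7 wild-type regions it overlapped, 6 had their summit inside the replicate 2 region.

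Widths at the loci were spread widely. Overexpression regions measured 149 to 1068 bp in replicate 1 (median 409 bp) and 208 to 1872 bp in replicate 2 (median 455 bp), and wild-type regions 188 to 669 bp (median 403 bp). The medians of the whole lists were 398, 378 and 379 bp. Regions at least as wide as the list median numbered 36 of 63, 40 of 61 and 6 of 10, where the whole-list shares were 50.9%, 50.2% and 50.1%. In the widest 10% of their list were 12 of 63 and 17 of 61 overexpression regions and 1 of 10 wild-type regions, where the whole-list shares were 10.5%, 10% and 10%. Both overexpression replicates thus had a larger share of broad regions at these loci than in their lists as a whole. In replicate 2 these lay chiefly at Socs3, where its median was 647 bp, against 448 bp in replicate 1 and 498 bp in wild type. Once replicate 1 regions up to 11 bp apart were joined, its median over the loci became 498 bp. Members overlapped in the other replicate had median widths of 448 bp in replicate 1 and 583.5 bp in replicate 2, against 378 bp in either list for the others. At Socs3 the 18 such regions of replicate 2 had a median of 796.5 bp, against 342 bp for the 8 others. At Socs2, by contrast, the broadest replicate 2 region, of 1088 bp, was not in replicate 1. A wider region has more room to overlap another by 1 bp. Widths of overlapped and other regions over the whole lists were not analysed here, so these medians are a description.

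**Figure D4:**
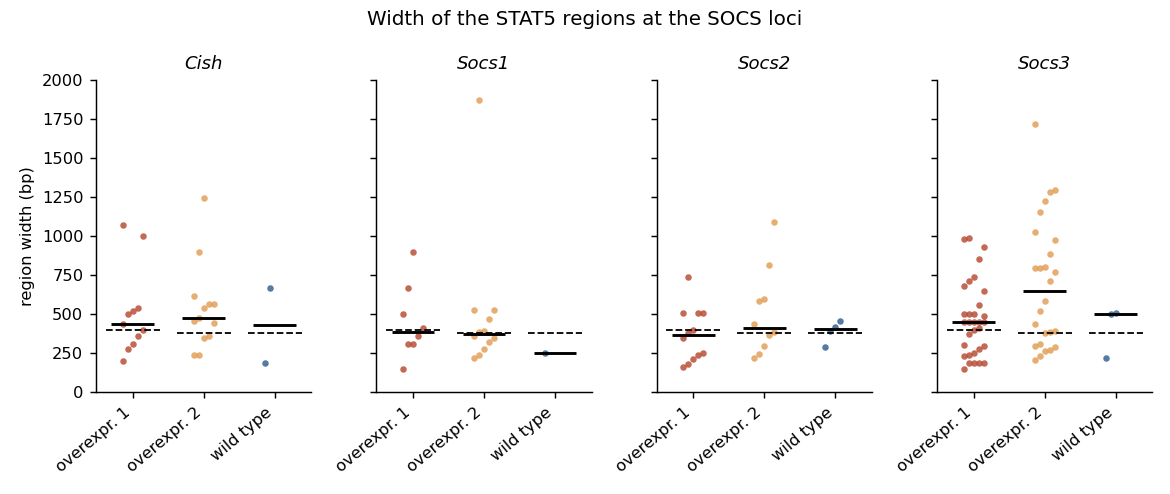
Width in bp of every STAT5 region at the 4 loci, with 1 point per region, for overexpression replicates 1 and 2 and wild type. Solid lines are medians at the locus and dashed lines the medians of the whole lists (398, 378 and 379 bp); the broadest regions are the 1872 bp region at Socs1 and the 1718 bp region at Socs3, both in replicate 2.

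The counts depend on where the windows end. With 50 kb added on each side there were 90 and 89 overexpression regions and 13 wild-type regions, in 117 sites. No region crossed an edge of the windows as used, and taking regions by any overlap gave the same numbers. The closest cases were at Socs1, where a replicate 1 region centred 0.804 kb inside was counted and one centred 2.57 kb outside was not. In the central 50% of each window, 45 and 42 overexpression regions and 7 wild-type regions remained. All 7 of those wild-type regions were overlapped in at least 1 overexpression replicate.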

How the data were processed

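STAT5 was mapped by ChIP-seq on an Illumina instrument, per the labels' protocols. The authors deposited, for each of 3 libraries, the start and end of called regions on mm9 and, for overexpression replicate 1 and wild type, a summit. The names of replicate 2 regions begin with MACS, per the file headers and names. The other caller, versions, thresholds, controls and aligner are not stated in the labels or files. The labels tie the replicate 2 list to an unstimulated and a stimulated library and to no IgG library. It was assigned to the stimulated library by its track name. All replicate 1 regions follow a 10 bp grid, as do 87.1% of wild-type regions and 1.95% of replicate 2 regions. Lists called in different ways can differ in number, width and edges. Whether replicates came from separate cultures is not stated.

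Positions were treated as BED intervals and are printed counted from 1. Overlap functions were tested on simulated data and gave the counts of bedtools 2.31.1. Python 3.11.15 was used, with pandas 2.3.3 for tables, numpy 2.4.6, scipy 1.17.1 for exact intervals and, for figures, matplotlib 3.10.9. All 4 genes were named, with every wild-type region, every site in more than 1 list and the widest regions. The genes and windows were chosen with earlier results of these data known. No test across samples was made.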

Additional observations from a re-analysis of the deposited data

How the results depend on the processing

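Of 79 alternative values for the numbers, shares, widths and summit distances, 57 stayed within the counting interval, the replicate spread or 1.5 times the reported number, and 22 moved. Some could hardly move, since no region crossed a window edge and replicate 2 and wild type had no gaps to join at the loci. The intervals of the wild-type shares were also wide (44.4 to 97.5% and 34.8 to 93.3%). The tally is therefore no measure of robustness. Wild-type median widths and the summit distance have no such range, and any change in them was counted as moved. None of these values has a test, so none could cross a threshold. In the central 50% of the windows all wild-type regions (100%) were overlapped in 1 or both overexpression lists, and median widths were 448 bp in replicate 1 and 458 bp in wild type. Windows extended by 50 kb on each side gave 117 sites and a wild-type median of 418 bp. Keeping regions at least as wide as their list's median lowers numbers by construction: it left 36, 40 and 6 regions, 21 sites in both replicates and 3 in all lists, with medians of 508, 591.5 and 478 bp. A reciprocal overlap of at least 50% left 3 sites in all lists, 10.0% of wild-type regions in both replicates and 44.4% of replicate 1 regions in replicate 2; centres within 200 bp gave 30.0% and 52.4% for these shares. The summit distance became 92.5 bp with centres. Joined regions, added after the data were seen, gave a replicate 1 median of 498 bp. Without either replicate, sites in the remaining overexpression list numbered 61 to 61, since 1 list then counts alone. For changes not due to construction the cause was not tested. Among 36 shares of background windows, 20 stayed within their interval and 16 moved. No paired analysis was possible because the wild-type group has 1 library and no test was made. Depth is unknown, so how many regions a deeper or shallower library would give cannot be said.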
